A study of Saccharomyces cerevisiae with 118 samples.

Results

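Pgpd-HAP4 cells are budding yeast in which 1 gene, HAP4, is driven by a strong constitutive promoter while the cells grow on glucose. The samples described here were the 6 RNA-seq libraries of this strain in rich glucose medium (YPD), of 118 in the series, chosen by their labels: 2 at log phase, 2 aged for 24h and 2 aged for 48h, from the experiments labelled E30_1 and E30_2. The strain is a diploid of the mother enrichment program (MEP), heterozygous for KanMX6-Pgpd-HAP4 (the GPD promoter is that of TDH3), for TOM70-GFP and for RPL13A-mCherry, with the SCW11 promoter driving the Cre-EBD78 recombinase and loxP sites in UBC9 and CDC20. The wild type libraries set beside it, 3 at log phase and 4 at each age on the same medium, carry the same MEP alleles with HAP4 unaltered. At log phase these came from E30_2, from experiment E34 and from an experiment labelled by its lane alone. At each age E30_1 was added to them. The lane-labelled libraries were sequenced in a different lane from all the others. Contrasts between the strains can therefore also carry differences between experiments and lanes. Oestradiol, which switches on the recombinase in newborn daughters and so stops them dividing, was added to ageing cultures only, and biotin-labelled mothers were purified from these, whereas log phase samples were unpurified cultures. The contrast with age therefore also carries the difference between purified mothers and a mixed culture, and between oestradiol and none.

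Hap4 is the activating subunit of the Hap2/3/4/5 complex, which binds CCAAT boxes in the promoters of genes for the respiratory chain, ATP synthase and other mitochondrial functions. HAP4 is repressed on glucose, on which yeast ferments, and its expression sets how active the complex is. Driving HAP4 from a glycolytic promoter makes cells respire on glucose. The design asks how gene expression changes with replicative age in cells forced into that state.

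Nuclear reads counted in genes ranged from 6710242 to 11597361 in the 6 Pgpd-HAP4 libraries and from 6598992 to 9601057 in the 11 wild type libraries. Levels below are quantile-normalised read counts, 2 to the power of the normalised log2 value, given for E30_1 and then E30_2, and differences are on the log2 scale. Of 6664 nuclear genes, 5846 had a mean of at least 4 normalised counts in Pgpd-HAP4 log phase and were tested with limma at a Benjamini-Hochberg adjusted p under 0.01. The study calls its samples biological replicates. The p-values measure the spread between samples of a group, pooled over the 6 Pgpd-HAP4 and the 11 wild type libraries. The p-values for ageing of Pgpd-HAP4 cells therefore also rest on wild type spread, including that between its experiments and lanes. Daughter-specific markers, 11 genes, summed to 30479 and 32124 counts at log phase, 18161 and 19592 at 24h, then 13862 and 14822 at 48h in Pgpd-HAP4 cells, and none was at 0. Of the 11, 9 fell at 24h and 10 at 48h, so the daughter markers moved with each contrast of age in Pgpd-HAP4 cells, and their part in those results was not tested. None of the 11 was called between the strains at log phase (median -0.01). In these bulk samples, fewer cells of a type and less RNA per cell cannot be told apart.

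The construct itself is placed by its 2 primers. The reverse primer's genomic part matched 1 site, chrXI:232227-232274 of the R64 assembly on the minus strand, which is the first 48 bases of the HAP4 coding sequence. It is shown because it fixes the join of promoter and gene, with capitals marking the complement of the start codon.
HAP4 reverse primer, genomic part: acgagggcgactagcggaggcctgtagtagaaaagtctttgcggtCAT
The forward primer's genomic part lay at chrXI:231981-232025, so the construct replaces 201 bases just upstream of the start codon. HAP4 (YKL109W) spans chrXI:232227-233891.

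The core of a Hap binding site was looked up in the 500 bases before each start codon, on both strands. CCAAT was present in 38 of 42 genes of 4 respiratory complexes (90.5%) and in 62.9% of all 5846 genes. The longer ACCAATNA, which contains CCAAT, was present in 18 of the 42 (42.9%), in 10 of 70 mitochondrial ribosomal protein genes (14.3%) and in 8.79% of all genes. Matches are descriptions of the letters, not evidence of binding. The windows below are of 8 of the genes of these complexes that the results return to. Each is 30 bases in R64 coordinates, read along the gene, with capitals marking ACCAATNA or its complement.
SDH1, chrXI:171429-171458, minus strand: ggcgggggtggACCAATCAcagcgcagaac
RIP1, chrV:107001-107030, plus strand: ctccataacggACCAATCAgcgttttgcgc
QCR7, chrIV:1496712-1496741, minus strand: atcttgttttgACCAATCAggagcgacgcg
COR1, chrII:135849-135878, minus strand: acgctttctgcACCAATGAaatgccaataa
COX8, chrXII:910149-910178, minus strand: aaacggtttgcACCAATCAtacgagagaag
COX13, chrVII:144584-144613, plus strand: ttttttttcccACCAATGAgaggcggtact
ATP14, chrXII:722553-722582, minus strand: gccatacacgaACCAATTAtgcatcataaa
TIM11, chrIV:1112420-1112449, minus strand: aatctccacgcTAATTGGTccgcggagcca
In these 8 windows the motif began or ended between 138 bases (TIM11) and 351 bases (COR1) before the start codon, and in TIM11 it was on the other strand. COX5B, to which the results also return, has ACCAATNA at 66 to 73 bases before its start codon and is not shown. Unlike the 8 genes shown, it was not higher in Pgpd-HAP4 cells at log phase (-0.56, not called).

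HAP4 mRNA was higher in Pgpd-HAP4 cells than in wild type at every age, and its change with age was not called after quantile normalisation. Its level was 5471 and 6377 counts at log phase, 4680 and 5136 at 24h, then 4670 and 5444 at 48h. In wild type it was 1133, 284.0 and 1010 at log phase, 997.2 to 1805 at 24h and 1452 to 2177 at 48h, so no Pgpd-HAP4 library overlapped any wild type library. At log phase the strains differed by 3.10 ± 0.44 on the log2 scale (SE, 2 against 3 samples, adjusted p = 0.000345), 8.59-fold. The changes with age in Pgpd-HAP4 cells were -0.27 at 24h and -0.23 at 48h (adjusted p = 0.706 and 0.698), and -0.55 and -0.93 on the values as deposited (adjusted p = 0.449 and 0.144). In a separate table of Pgpd-HAP4 cells sorted at 48h, HAP4 had 2286 to 3532 counts as deposited in the 6 libraries, against 7288 and 8904 at log phase, with no test. Of the other subunits, HAP2 and HAP5 were not called at either age, while HAP3, which carries part of the DNA-binding surface, fell by 0.87 ± 0.17 at 48h (adjusted p = 0.000619).

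**Figure D1:**
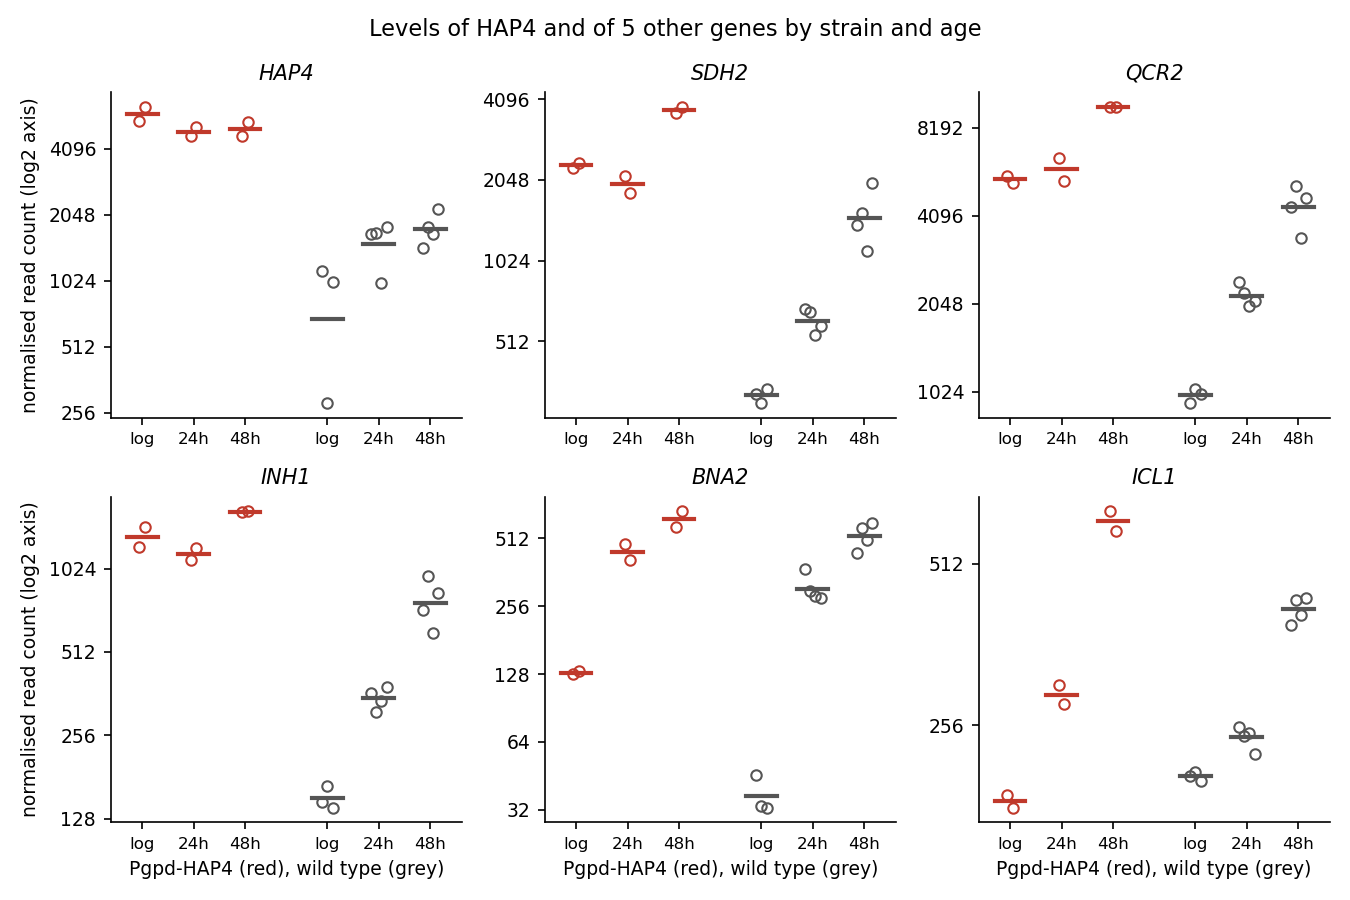
Quantile-normalised read counts (log2 axis) of HAP4, SDH2, QCR2, INH1, BNA2 and ICL1 at log phase, 24h and 48h in Pgpd-HAP4 (red, left) and wild type (grey, right), with 1 point per sample and bars at the geometric mean. HAP4 stays between 4670 and 6377 counts in Pgpd-HAP4 samples, and SDH2, QCR2 and INH1 begin at a level in Pgpd-HAP4 log phase that no wild type sample reaches at 48h.

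Before ageing, most genes of the respiratory complexes and most of those of the mitochondrial ribosome were higher in Pgpd-HAP4 cells than in wild type. Of the 5846 genes, 251 were higher and 7 lower (percent called 4.41, 4.29 higher and 0.120 lower). The filter used Pgpd-HAP4 log phase itself, so genes low there and high in wild type could be left out. Without a filter 243 were higher and 13 lower, and with a filter of 16 counts 248 and 1. Of 42 genes for complexes II, III, IV and ATP synthase, 38 were higher and none lower, with a median difference of 1.82, against -0.06 for all genes tested. Both strains' levels overlapped in none of the called genes.

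The succinate dehydrogenase genes, whose complex feeds electrons from succinate into the chain, were all higher. SDH2, its iron-sulphur subunit, had 2279 and 2372 counts in Pgpd-HAP4 log phase, against 325.9, 301.5 and 339.0 in wild type log phase, a difference of 2.85 ± 0.18 (SE). SDH1, the flavoprotein subunit, differed by 2.90 ± 0.18, or 7.48-fold. In complex III, the cytochrome bc1 complex, with cytochrome c, 10 of 11 genes were higher with a median of 2.07. RIP1, the Rieske iron-sulphur protein, had 2048 and 2090 counts, against 384.3, 400.5 and 387.4 in wild type. The exception was CYC7, the hypoxic form of cytochrome c, with 55.54 and 59.64 counts in Pgpd-HAP4 cells, against 63.33, 73.36 and 67.12 in wild type.

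Of 10 nuclear genes for cytochrome c oxidase (complex IV), 8 were higher with a list median of 1.75, among them COX5A with 2391 and 2481 counts, against 557.9, 591.8 and 558.7 in wild type. COX5B, the hypoxic isoform of the same subunit, was not called, with 287.8 and 288.3 counts in Pgpd-HAP4 cells, against 463.0, 423.1 and 390.7 in wild type. The other uncalled gene was YDR119W-A, at a difference of 1.26 (adjusted p = 0.414). Of 17 ATP synthase genes 16 were higher, with a median of 1.66. INH1, an inhibitor of the enzyme's ATPase activity, was the furthest apart, with 1222 and 1452 counts in Pgpd-HAP4 log phase, against 147.4, 167.5 and 140.3 in wild type, a difference of 3.14 ± 0.16 (adjusted p = 2.84e-08). The uncalled member was STF2, a factor described as stabilising bound INH1, at -0.08.

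Mitochondrial ribosomal protein genes were higher by a smaller amount, 55 of 70 with a median of 0.71. Of 14 genes of the citric acid cycle 8 were higher (median 0.79), led by MDH1 at 1.97 and CIT1, citrate synthase, at 1.80. NDI1, the internal NADH dehydrogenase that stands in for complex I in yeast, had 1942 and 2067 counts at Pgpd-HAP4 log phase and was 2.22 ± 0.17 above wild type. In limma 0 of 138 cytosolic ribosomal protein genes were called, against 4.41% of all genes. The count was also 0 of 14 gluconeogenesis and glyoxylate genes and 0 of 21 glycolysis and fermentation genes. In lists so short that is near the share of all genes.
The largest differences by size included transcripts that share sequence with neighbours. YBL100C, at 4.00 ± 0.81, lies antisense to ATP1 over 251 of its 315 bases and had 23 and 3 reads at Pgpd-HAP4 log phase. Its call was lost on the values as deposited. YML089C stood at 3.72 ± 0.46 with 22.38 and 13.06 counts. The 7 lower genes were MF(ALPHA)1, FRE5, MBR1, YDL187C, HES1, YMR244W and ZRT1, of which YDL187C, HES1 and YMR244W were not called as deposited. MF(ALPHA)1, the alpha-factor gene of haploid cells, had 9.50 and 9.07 counts in Pgpd-HAP4 log phase, against 31.48, 27.42 and 58.47 in wild type (difference -1.99 ± 0.35). FRE5, coding for a reductase of the iron regulon, had 20.79 and 9.07 counts, against 43.71, 56.23 and 48.80 in wild type (-1.84 ± 0.33). MBR1, linked to mitochondrial function and stress, had 26.97 and 22.81 counts, against 57.81, 57.47 and 61.43 in wild type (-1.25 ± 0.15).

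Ageing for 24h changed 734 genes (percent called 12.6, 6.79 higher and 5.76 lower) and ageing for 48h changed 2714 (46.4 in all and 27.4 lower, with 1111 genes higher and 1603 lower), each against the same log phase libraries. On the values as deposited 1444 genes were higher and 1465 lower at 48h, so the excess of falls depends on the scaling. Between 24h and 48h 999 genes changed (17.1, 7.70 higher and 9.39 lower). In a fit of the 6 Pgpd-HAP4 libraries alone 356 were higher and 311 lower between the ages, so which direction is in excess depends on the fit. The 48h change had the same sign in E30_1 and E30_2 for 5268 of 5846 genes (90.1%), and the 24h change for 4858 (83.1%). Quantile normalisation moved the median of all genes at 48h to -0.12, against 0.01 as deposited, and changes below are to be read relative to that shift.

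The 6 largest called rises at 24h were of PIR3, HSP12, YLR042C, SFC1, FUS1 and HSP26. PIR3, coding for a cell wall mannoprotein, had 3034 and 2337 counts at 24h, against 96.21 and 94.55 at log phase, a rise of 4.80 ± 0.21 (27.9-fold, adjusted p = 2.18e-08). HSP12, coding for a small membrane-protecting stress protein, had 1260 and 1160 counts at 24h, against 40.07 and 53.46 at log phase (4.71 ± 0.41). Neither gene's aged levels came near its log phase levels. SFC1, the succinate-fumarate carrier of the inner mitochondrial membrane, rose by 4.15 ± 0.50, HSP26, a small heat shock chaperone, by 3.94 ± 0.37, the unnamed YLR042C by 4.56 ± 0.24, and FUS1, which acts in cell fusion during mating, by 4.10 ± 0.35.

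The 6 largest falls at 24h were in transcripts with few reads. The filter used the same log phase libraries that these falls are measured from. A transcript with few reads could therefore pass it through a high log phase value, so these calls are weak evidence of a fall with age. YLR410W-A, which lies wholly within the Ty gene YLR410W-B, had 0 and 3 reads at 24h, against 17 and 9 at log phase. YBL053W, antisense to SAS3 over 331 of its 375 bases, had 1 and 2 reads at 24h, against 11 and 5 at log phase. YAL047W-A, antisense to GEM1 over 206 of its 330 bases, had 1 and 1 reads, against 5 and 5 at log phase. The other 3, YOR316C-A, YMR279C and MPH3, had at most 9 reads in a 24h library, and the calls of YAL047W-A, YMR279C and MPH3 were lost on the values as deposited (adjusted p = 0.017, 0.0342 and 0.0186).

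At 48h the leading rises continued. HSP12 reached 9322 and 8412 counts, 7.58 ± 0.41 above log phase (191-fold, adjusted p = 1.39e-08), and PIR3 reached 11019 and 12153 counts, 6.92 ± 0.21 above log phase (121-fold). SFC1 had 9.50 and 6.79 counts at log phase, 186.7 and 108.5 at 24h, then 531.8 and 595.8 at 48h (6.13 ± 0.50 at 48h). NCA3, of the SUN family and active in the cell wall and mitochondria, had 49.75 and 22.81 counts at log phase, 615.4 and 430.9 at 24h, then 2022 and 2297 at 48h (6.00 ± 0.39). For these 4 genes the ages did not overlap, and each 48h library exceeded each 24h library. HSP26 rose by 5.99 ± 0.37 and YLR042C by 5.86 ± 0.24 at 48h.

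The 2 largest falls at 48h were of acid phosphatase genes. PHO12 had 1399 and 1382 counts at log phase, 261.9 and 259.2 at 24h, then 37.89 and 26.26 at 48h, a fall at 48h of 5.46 ± 0.24 (44.1-fold, adjusted p = 2.23e-09). PHO11, a near-identical copy whose reads may be shared with PHO12, had 644.5 and 609.8 counts at log phase, 148.6 and 155.3 at 24h, then 24.64 and 18.14 at 48h. Both phosphatase genes fell in each interval. UBC9, whose loxP-flanked copies are the target of the recombinase, had 515.1 and 569.1 counts at log phase, 221.9 and 223.7 at 24h, then 33.13 and 36.46 at 48h (-3.96 ± 0.26), while CDC20, the other target, was not called at either age (0.09 ± 0.10 at 48h). SPL2, which restrains low-affinity phosphate uptake, had 97.59 and 34.60 counts at 48h, against 803.6 and 773.1 at log phase. The other leading falls were YOL014W (-4.16 ± 0.50) and YPL142C (-3.97 ± 0.94), the second antisense to RPL33A over 285 of its 318 bases and with 4.92 and 2.47 counts at 48h. YPL142C was not called as deposited (adjusted p = 0.044).

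**Figure D2:**
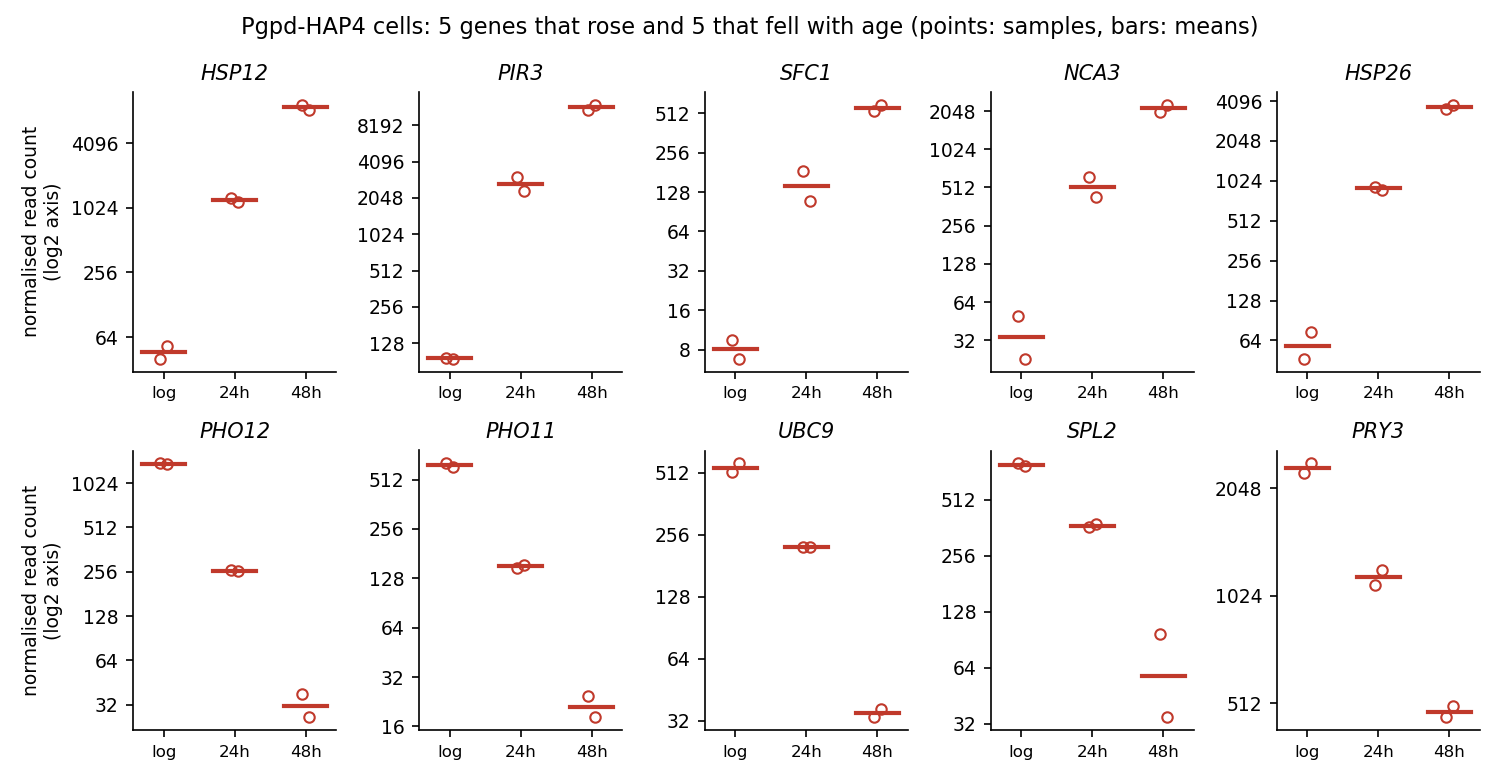
Quantile-normalised read counts (log2 axis) of 5 genes that rose (top) and 5 that fell (bottom) in Pgpd-HAP4 cells at log phase, 24h and 48h, with 1 point per sample and bars at the geometric mean. HSP12 reached 9322 and 8412 counts at 48h, against 40.07 and 53.46 at log phase, and PHO12 37.89 and 26.26 at 48h, against 1399 and 1382 at log phase.

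Few of the respiratory genes that began high in Pgpd-HAP4 cells changed by 24h, and 22 of the 42 rose by 48h. The median level of the 42 genes was 2026 and 2114 counts at log phase, 1749 and 1789 at 24h, then 2611 and 2444 at 48h. At 24h, 1 gene rose and 2 fell, with a median change of -0.09, against -0.07 for all genes. At 48h, 1 of the others fell, and the median was 0.58, against -0.12 for all genes. On the values as deposited 11 rose and 2 fell at 48h with a median of 0.14, so the size of the 48h rise depends on the scaling.

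The gene that rose at 24h was STF1, coding for an inhibitor related to INH1, with 772.1 and 736.6 counts at 24h, against 331.5 and 376.2 at log phase (1.09 ± 0.16). The 2 that fell at 24h were COX8, a small oxidase subunit, at -0.56 (adjusted p = 0.003), and ATP20, a subunit of the ATP synthase dimer, at -0.63 (adjusted p = 0.00332). ATP20 was also the only one of the 42 called lower at 48h, with 1696 and 1632 counts at log phase, 1033 and 1121 at 24h, then 1119 and 1041 at 48h. COX8, whose window is shown above, had 1242 and 1119 counts at 48h, against 1254 and 1380 at log phase (-0.16, adjusted p = 0.242).

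In complex II, SDH1, SDH2 and SDH4 rose at 48h by 0.77, 0.68 and 0.78. On the values as deposited the rises of SDH1 and SDH2 were 0.21 and 0.32 and were not called. SDH1 had 3497 and 3261 counts at log phase, 3539 and 3135 at 24h, then 5297 and 6260 at 48h, so its 48h libraries stood apart from both earlier ages. In complex III with cytochrome c, 7 of 11 rose at 48h, led by CYC7 at 2.05 ± 0.25, QCR6 at 1.50 ± 0.19 and QCR7 at 1.15 ± 0.11. QCR7, a small bc1 subunit, had 2910 and 3195 counts at log phase, 3234 and 3229 at 24h, then 7158 and 6377 at 48h. CYC1, the main aerobic cytochrome c, was not called, with 2837 and 2903 counts at log phase, 1975 and 2069 at 24h, then 2248 and 2138 at 48h (-0.39 at 48h, adjusted p = 0.0681, but -0.69 with adjusted p = 0.00293 as deposited). RIP1 likewise was not called, at 1844 and 2029 counts at 48h, against 2048 and 2090 at log phase. COR1, a core subunit, had 8240 and 8988 counts at 48h, against 5554 and 5822 at log phase, and just missed the threshold (0.60 ± 0.18, adjusted p = 0.0111).

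In complex IV, COX7 and COX13 rose at 48h by 0.64 ± 0.14 and 0.57 ± 0.12, and the other 8 genes were not called. COX13 was not called as deposited (0.30). It had 1745 and 1939 counts at log phase, 1789 and 1882 at 24h, then 2708 and 2745 at 48h. Of the ATP synthase genes 10 of 17 rose at 48h, with a median of 0.50. STF1 reached 2082 and 1593 counts and STF2 968.4 and 941.1 counts at 48h, the largest rises of that list at 2.37 and 1.62. The catalytic subunit genes ATP1 and ATP2 rose by 0.95 ± 0.15 and 0.90 ± 0.15, but their changes were -0.10 and -0.17 on the values as deposited, and that of QCR2 turned to -0.02 likewise. INH1, the gene furthest above wild type among the 42, had 1637 and 1647 counts at 48h, against 1222 and 1452 at log phase (0.30 ± 0.18, adjusted p = 0.154).

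Mitochondrial ribosomal protein genes fell with age. Of 70 mitochondrial ribosomal protein genes, 19 fell and none rose at 24h (median -0.41), and 46 fell and 1 rose at 48h (median -0.64). As deposited, the 48h median was -0.58 with the same counts. RSM26, of the small subunit, had 1044 and 1069 counts at log phase, 557.8 and 615.4 at 24h, then 444.6 and 367.2 at 48h (-1.39 ± 0.10 at 48h, adjusted p = 1.88e-07). MRPL35, of the large subunit, had 987.4 and 926.7 counts at log phase, 583.7 and 617.6 at 24h, then 410.1 and 401.6 at 48h (-1.24 ± 0.08). In both genes the 3 ages did not overlap. The 1 that rose was MRP8, at 0.71, a gene now regarded as not coding for a ribosomal protein. All 8 genes of the TOM complex, through which proteins enter mitochondria, fell at 48h, with a median of -0.89 (-0.93 as deposited). TOM20, a receptor subunit, had 1433 and 1262 counts at log phase, 979.5 and 1034 at 24h, then 680.8 and 657.8 at 48h, and TOM70, of which 1 allele is tagged with GFP in this strain, fell by 0.76 ± 0.11 at 48h.

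Of 14 citric acid cycle genes, none was called at 24h, and at 48h 5 rose and 1 fell (median 0.27, but -0.34 as deposited, with 2 rising and 3 falling). The share of the list called at 48h was near the 46.4% of all genes. CIT3, a mitochondrial citrate synthase, rose by 1.52 ± 0.25 and LSC2, of succinyl-CoA ligase, by 1.05 ± 0.11. LSC2 had 2207 and 2369 counts at log phase, 2998 and 2684 at 24h, then 4577 and 4884 at 48h. Of the 5 dehydrogenases that pass electrons to the chain, NDE2, GUT2 and NDI1 rose at 48h by 4.27, 2.33 and 0.62, the last not called as deposited (0.33). NDE2, an external NADH dehydrogenase, had 16.27 and 9.07 counts at log phase, 58.82 and 62.78 at 24h, then 220.1 and 249.0 at 48h.

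**Figure D3:**
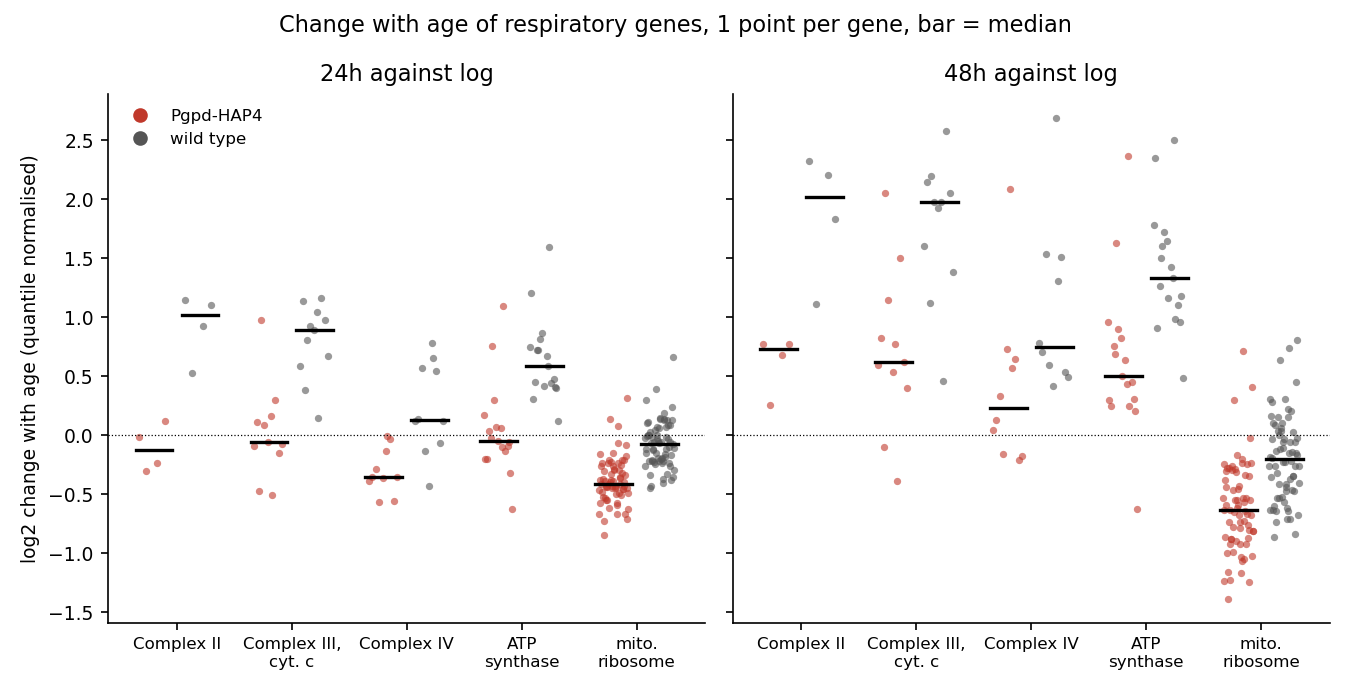
Fitted log2 change with age, at 24h (left) and 48h (right) against log phase, of genes of 4 respiratory complexes and of the mitochondrial ribosome, in Pgpd-HAP4 (red) and wild type (grey), with 1 point per gene and bars at the median. At 48h the median of the 4 complexes together was 0.58 in Pgpd-HAP4 and 1.46 in wild type, and that of the mitochondrial ribosome -0.64 and -0.20. A difference between the strains in the 48h change was called for 7 genes of the complexes and 0 of the mitochondrial ribosome.

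Genes for growth on non-fermentable carbon rose with age. Of 14 tested genes of gluconeogenesis and the glyoxylate cycle (15 on the list), 10 rose at 24h and 11 at 48h, none fell, and the medians were 0.74 and 1.92 (1.06 and 2.20 as deposited). PCK1, the key enzyme of gluconeogenesis, had 99.08 and 96.34 counts at log phase, 1095 and 812.5 at 24h, then 2879 and 4604 at 48h (5.22 ± 0.36 at 48h). JEN1, a lactate and pyruvate transporter, had 29.87 and 38.40 counts at log phase, 209.5 and 163.0 at 24h, then 565.4 and 671.5 at 48h. Both rose in each interval. MLS1, malate synthase of the glyoxylate cycle, had 32.60 and 44.04 counts at log phase, 51.07 and 40.77 at 24h, then 375.6 and 388.2 at 48h, so its rise came between 24h and 48h (3.06 ± 0.26). FMP16, a mitochondrial protein of unknown role, was the largest rise of that interval, at 3.16 ± 0.40, with 588.9 and 614.1 counts at 48h, against 70.58 and 64.50 at 24h.

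Most hexose transporter genes that were called rose. Of 12 tested (17 on the list), 4 rose at 24h, against 12.6% called of all genes. At 48h 5 rose and 1 fell, a share called near the 46.4% of all genes. HXT5, a transporter of slow-growing and starved cells, had 14.91 and 20.25 counts at log phase, 82.34 and 66.93 at 24h, then 430.7 and 527.5 at 48h (4.78 ± 0.36). HXT4 rose by 4.73 ± 0.41, HXT3 by 1.85 ± 0.28 (0.94 and not called as deposited), and HXT6 and HXT7, near-identical high-affinity transporter genes, by 3.16 and 4.27 at 48h. HXT1, the low-affinity transporter of high glucose, had 1561 and 1675 counts at 48h, against 4032 and 3686 at log phase (-1.25 ± 0.34). Storage carbohydrate genes rose in 13 of 16 at 48h (median 1.67), led by GPH1, glycogen phosphorylase, with 1780 and 2174 counts at 48h, against 134.1 and 143.5 at log phase, and by the glycogen branching enzyme GLC3 (3.69 ± 0.39). Of 21 glycolysis and fermentation genes, 5 rose and 7 fell at 48h, against 46.4% called of all genes. Their median was -0.10 (-1.39 as deposited, 4 rising and 14 falling). The hexokinase gene HXK1 rose by 2.77 ± 0.40 and the glucokinase gene GLK1 by 2.36 ± 0.29, while TDH2, glyceraldehyde-3-phosphate dehydrogenase, fell by 1.19 ± 0.16. TDH3, whose promoter is the one in the construct, had the highest value of the genes normalised in all 6 libraries, so quantile normalisation fixed it at 142171 counts, and as deposited it fell by 1.39 at 48h.

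Genes of phosphate uptake and storage had the lowest list median at 48h. Of 15, 5 fell at 24h, and 12 fell and 2 rose at 48h, with medians of -0.60 and -1.77 (-0.82 and -2.11 as deposited). PHO84, the high-affinity phosphate transporter, had 18782 and 17643 counts at log phase, 18540 and 15836 at 24h, then 6327 and 3504 at 48h, so it fell between 24h and 48h. VTC3, of the vacuolar polyphosphate polymerase, had 7418 and 7310 counts at log phase, 4411 and 4429 at 24h, then 1415 and 1204 at 48h (-2.50 ± 0.18). The 2 that rose were PHM8 and PHM7, the second by 0.90 ± 0.21.

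In the iron regulon, the targets of Aft1 and its partner, more genes fell than rose at 24h, and only rises were called between 24h and 48h. Of 26 genes, 1 rose and 7 fell at 24h (median -0.35), 10 rose and none fell between 24h and 48h, and at 48h against log phase 5 rose and 5 fell. The shares called of all genes were 12.6%, 17.1% and 46.4%. SIT1, a siderophore transporter, had 1291 and 1311 counts at log phase, 452.0 and 440.0 at 24h, then 920.8 and 1120 at 48h. FET3, the multicopper oxidase of iron uptake, had 3167 and 3370 counts at log phase, 1389 and 1336 at 24h, then 1963 and 2973 at 48h. Both were lowest at 24h, and neither was called at 48h against log phase (adjusted p = 0.114 and 0.105), although FET3 was as deposited (-0.81, adjusted p = 0.00481). FIT3, a wall mannoprotein that holds siderophore iron, had 176.0 and 151.8 counts at log phase, 302.7 and 325.7 at 24h, then 878.3 and 1185 at 48h (2.64 ± 0.33), and HMX1, haem oxygenase, had 61.85 and 57.83 counts at log phase, 257.9 and 198.2 at 24h, then 569.1 and 614.1 at 48h (3.31 ± 0.19).

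Cell wall and chitin genes rose. Of 17 mannoprotein genes 10 rose and 1 fell at 48h (median 1.38). SED1, an abundant wall protein of stationary cells, had 112627 counts in both 48h libraries, against 11657 and 13387 at log phase (3.17 ± 0.14), and HSP150, a PIR-family protein, rose by 2.38 ± 0.13. The member that fell was TIR3, at -1.72 ± 0.17. Of 10 tested chitin synthesis genes (11 on the list) 8 rose at 48h, with CDA1, a chitin deacetylase, at 4.12 ± 0.27, CHS3, the main chitin synthase, at 1.40 ± 0.11 and GFA1, which makes the precursor glucosamine phosphate, at 1.11 ± 0.11. Within the SUN family, NCA3 and UTH1 rose and SUN4, which is expressed during cell separation, fell by 1.78 ± 0.15.

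The growth machinery was lower at 48h. Of 138 cytosolic ribosomal protein genes 5 fell at 24h and 91 at 48h, and none rose, with a 48h median of -0.52 (-1.31 as deposited, 133 falling). RPS9A, of the small subunit, had 2605 and 2564 counts at log phase, 1465 and 1450 at 24h, then 929.4 and 779.6 at 48h (-1.60 ± 0.14). Of 46 ribosome biogenesis genes none was called at 24h and 23 fell at 48h (median -0.45), among them UTP22 at -0.88 ± 0.11 and RPA43, of RNA polymerase I, at -0.86 ± 0.12. The share of that list called at 48h was near the 46.4% of all genes, of which 27.4% were lower. Of 10 histone genes 6 fell at 48h, against 27.4% of all genes, with HTB2 at -1.45 ± 0.11 and HTA2 at -1.14 ± 0.14. Of 33 proteasome genes 5 rose at 48h (median 0.24), but the median was -0.11 as deposited, with 1 rising and 3 falling, so no direction holds for that list.

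Of 16 chaperone genes 4 rose at 48h (HSP12, HSP26, SSA4 and SSA3) and 4 fell (SSA2, HSC82, STI1 and YDJ1), or 7 as deposited, against 46.4% called of all genes. The list median was 0.33, and -0.55 as deposited. Of 17 oxidative stress genes 7 rose and 2 fell at 48h, against 46.4% called of all genes. As deposited 7 of them rose and 5 fell. CTT1, cytosolic catalase, had 183.5 and 220.8 counts at log phase, 213.1 and 199.1 at 24h, then 486.3 and 582.6 at 48h (1.40 ± 0.24), and PRX1, mitochondrial peroxiredoxin, rose by 1.50 ± 0.19. GPX2 fell by 1.89 ± 0.38. Among 12 genes of sirtuins and rDNA silencing 3 rose and 2 fell at 48h, a share near the 46.4% called of all genes. HST3 rose by 0.92 ± 0.16, SIR3 by 0.45 ± 0.08 and HST2 by 0.43 ± 0.11, while FOB1, which holds the replication fork barrier of the rDNA, fell by 0.91 ± 0.16 and SIR2 fell by 0.41 ± 0.10 at 48h (-0.26 and not called as deposited).

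Daughter markers fell at both ages. PRY3 had 2263 and 2406 counts at log phase, 1100 and 1209 at 24h, then 466.7 and 503.6 at 48h (-2.27 ± 0.15), and DSE4, a glucanase of daughter cell separation, fell by 1.77 ± 0.11. ASH1, which is inherited by daughters, was not called, at 1294 and 1416 counts at 48h, against 1429 and 1621 at log phase. Some genes that a diploid should repress rose from few reads. FUS1 had 5 and 6 reads at log phase, 164 and 116 at 24h, then 304 and 265 at 48h. Of 15 tested haploid and mating genes (18 on the list), 4 rose at 24h, and at 48h FUS1, MF(ALPHA)1, FUS3, STE3 and AGA1 rose and RME1 fell (RME1 not as deposited, -0.41). The share of the 15 called at 48h was near the 46.4% of all genes. The 18 genes summed to 1356 and 1610 counts at log phase, 2434 and 2129 at 24h, then 2045 and 1913 at 48h, and MF(ALPHA)2, STE18 and AGA2 had 0 reads in the E30_1 log phase library.

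**Figure D4:**
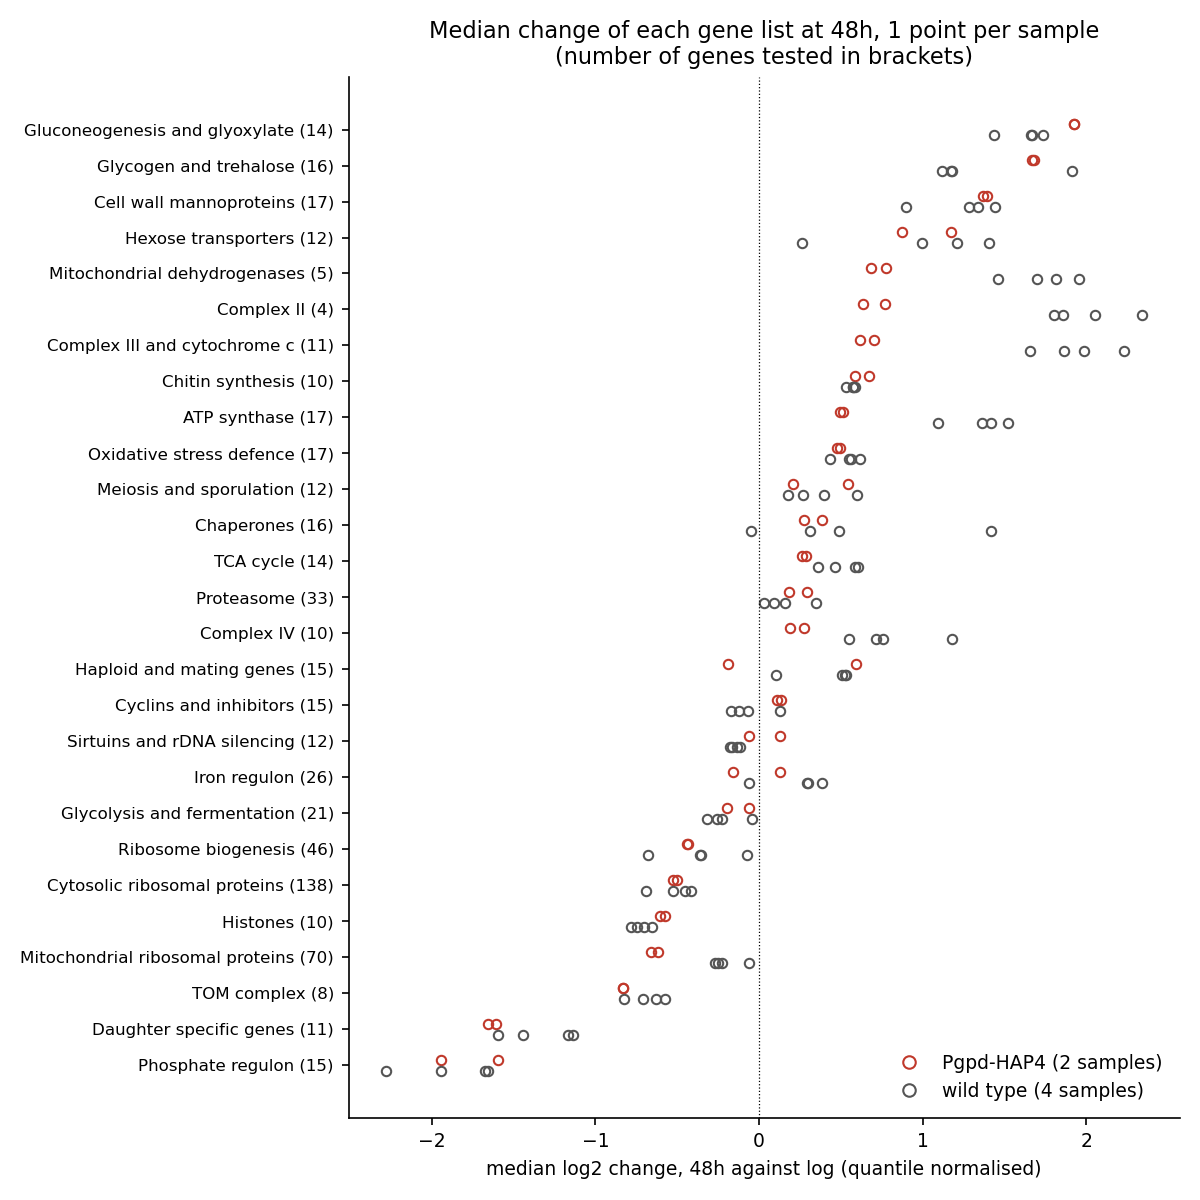
Median log2 change of each gene list at 48h against log phase (quantile normalised), with 1 point per sample, in Pgpd-HAP4 (red, above) and wild type (grey, below), and the number of genes tested in brackets. Gluconeogenesis and glyoxylate genes lead at 1.92 in Pgpd-HAP4 and the phosphate regulon is lowest at -1.77.

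The change with age was then set against that of wild type by an interaction contrast, which tests whether a gene changed by a different amount in the 2 strains. It uses the same Pgpd-HAP4 log phase libraries as the starting difference above, so the 2 results share samples and are not independent. At 24h no gene passed (percent called 0 in limma, 419 at an unadjusted p under 0.05, 2 in voom and 28 on the values as deposited, smallest adjusted p = 0.0153). At 48h 14 passed (percent called 0.239, 0.222 with a negative and 0.0171 with a positive difference, Pgpd-HAP4 minus wild type). The 42 respiratory genes had a median difference of -0.67 at 24h with 0 called, and -0.83 at 48h with 7 called, all negative, against 0.02 and 0.03 for all genes. On the values as deposited 11 and 33 of the 42 were called. Of 70 mitochondrial ribosomal protein genes 0 were called at either age, with median differences of -0.32 and -0.41. As deposited 0 and 8 of the 70 were called.

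Of the 13 genes with a negative difference, 7 were of the 4 complexes. Of the 13, 11 had a fitted change above 0 in both strains and nearer to 0 in Pgpd-HAP4 cells, but ATP20 fell in Pgpd-HAP4 cells by 0.62 and had a change of 0.48 in wild type, and MAM33 was lower at 48h in both strains and fell further in Pgpd-HAP4 cells. As deposited, RPM2, TIM11 and QCR2 of the 11 had changes below 0 in Pgpd-HAP4 cells, at -0.34, -0.06 and -0.02. INH1 had 1637 and 1647 counts in Pgpd-HAP4 cells at 48h and 1222 and 1452 at log phase, whereas wild type had 723.6, 961.3, 599.5 and 837.9 at 48h and 147.4, 167.5 and 140.3 at log phase, a difference in change of -2.04 ± 0.22 (adjusted p = 0.000952). QCR2, a core subunit of complex III, had 9657 counts in both Pgpd-HAP4 libraries at 48h and 5614 and 5311 at log phase, whereas wild type had 3430 to 5191 at 48h and 937.0 to 1045 at log phase (-1.32 ± 0.19). For both genes every wild type library at 48h lay below every Pgpd-HAP4 log phase library. CYT1, cytochrome c1, differed in its change by -1.42 ± 0.22, QCR10 by -1.39 ± 0.20, ATP20 by -1.11 ± 0.16, TIM11, another dimer subunit of ATP synthase, by -0.98 ± 0.13, and ATP14 by -0.90 ± 0.13. YLR294C (-0.93), which shares 32 bases with ATP14 on the same strand, and YPR010C-A (-1.08) were also called.

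The other 5 genes were not of these complexes. RPM2, the protein subunit of mitochondrial RNase P, had 3171 and 3092 counts in Pgpd-HAP4 cells at 48h and 2946 and 3086 at log phase, whereas wild type had 1221 to 1585 at 48h and 349.2 to 498.9 at log phase (-1.66 ± 0.20). BNA2, the first enzyme of NAD synthesis from tryptophan, rose in Pgpd-HAP4 cells, with 578.1 and 675.1 counts at 48h, against 127.5 and 132.6 at log phase, and by 1.57 ± 0.23 less than in wild type. MAM33, a mitochondrial matrix protein, fell to 598.0 and 574.1 counts at 48h, against 1260 and 1293 at log phase, while wild type had 432.5 to 476.0 at 48h and 542.7 to 571.9 at log phase, and its difference was -0.84 ± 0.09. ADY4, found at the spindle poles of meiotic cells, differed by -0.75 ± 0.10. ICL1, isocitrate lyase of the glyoxylate cycle, was the gene with a positive difference, at 640.4 and 589.8 counts at 48h and 189.6 and 179.7 at log phase, whereas wild type had 393.5 to 441.2 at 48h and 201.5 to 209.5 at log phase (0.70 ± 0.10, adjusted p = 0.0051). The count of 14 rested on few libraries: it was 0 without the E30_2 log phase or the E30_2 48h library of Pgpd-HAP4, 2 and 3 without those of E30_1, and 0 with wild type of E30 alone. With the experiment as a replicate block 3 of the 14 were called.

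Over the whole transcriptome, genes with low expression at log phase rose and abundant genes fell in relative terms. With values as deposited, the lowest of 4 equal groups of genes by log phase level had a median change of 0.35 and 0.33 at 24h and 0.72 and 0.68 at 48h in Pgpd-HAP4 cells, and the highest group -0.23 and -0.17 at 24h and -0.54 and -0.48 at 48h. The groups were formed on the same log phase values that the change is measured from. Noise in those values alone moves the groups in these directions, and its part was not measured. The slope of log2 change on mean log2 level, which measures the bias of change with level, was -0.0862 ± 0.0063 in Pgpd-HAP4 cells (SD, n = 2) and -0.1317 ± 0.0223 in wild type (SD, n = 4) at 24h. At 48h it was -0.1835 ± 0.0098 in Pgpd-HAP4 cells and -0.2365 ± 0.0322 in wild type. All Pgpd-HAP4 slopes were nearer 0 than every wild type slope of the same age (differences 0.0455 and 0.0530), but the exact two-sided permutation test gave p = 0.133 at each age, and 15 regroupings allow none below 0.0667. The slope differences depended on the filter, at 0.0100 and 0.0172 with none and 0.0308 and 0.0340 with a minimum of 16 counts.

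Genes of ChrXIIr, the part of chromosome XII between the rDNA and the right telomere, rose relative to other chromosomes. Their median change minus that of other nuclear chromosomes was 0.0992 and 0.122 at 24h in Pgpd-HAP4 cells and 0.1359 to 0.2373 in wild type. At 48h it was 0.2869 and 0.3369 in Pgpd-HAP4 cells and 0.4174 to 0.5208 in wild type. No Pgpd-HAP4 value reached the lowest wild type value at either age. The differences of the means were -0.0891 at 24h and -0.1558 at 48h, each at p = 0.0667 in the exact two-sided permutation test, the smallest this design allows.

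**Figure D5:**
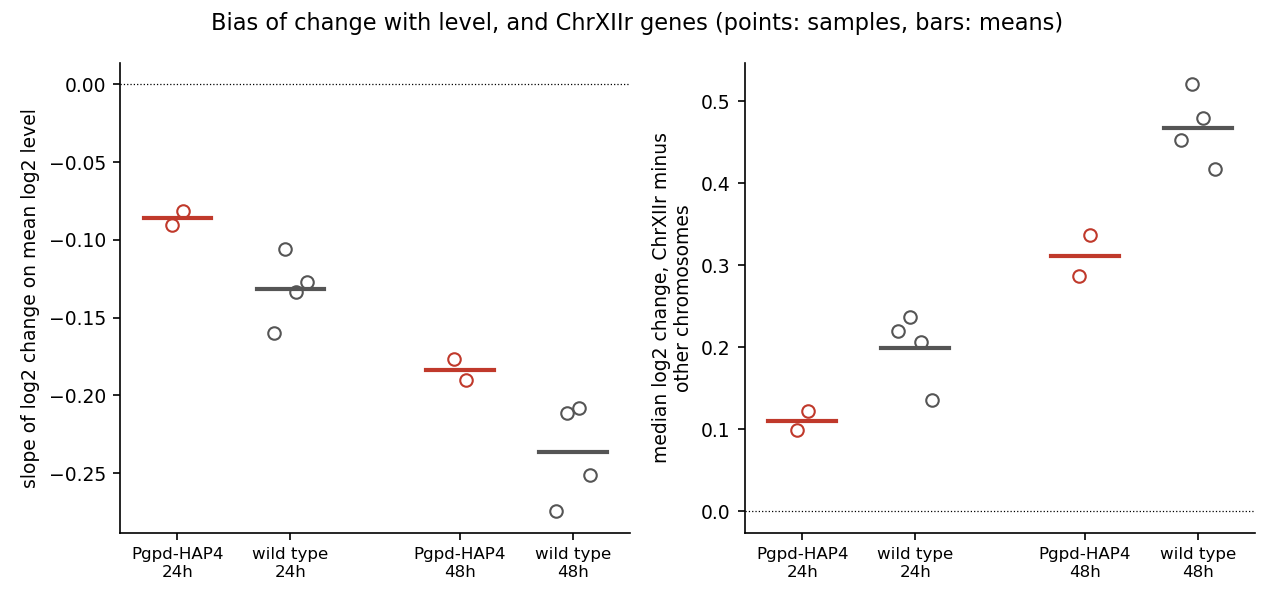
Slope of log2 change from log phase on mean log2 level (left) and median log2 change of ChrXIIr genes minus that of other nuclear chromosomes (right), values as deposited, with 1 point per sample and bars at the mean, Pgpd-HAP4 (red) left of wild type (grey) at each age. Slopes at 48h were -0.1765 and -0.1904 in Pgpd-HAP4 and -0.2083 to -0.2747 in wild type.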

How the data were processed

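RNA-seq was measured as poly(A) RNA in single 75 bp reads. Per the labels and methods, the authors trimmed reads (Trim Galore 0.6.6), aligned them to R64-1-1 with HISAT2 2.1.0 and counted them by strand over open reading frames in SeqMonk. The deposited log2 values are read counts scaled by size factors within the table. All values fall on whole reads within 0.001 of the value, with 0 reads placed at 0.9 of a read, which let limma voom be run on recovered reads. Of 6692 genes, 28 mitochondrial genes were left out. From the log2 values, quantile-normalised values were tested with limma 3.58.1 (R 4.3.3), 1 mean per group over 6 Pgpd-HAP4 and 11 wild type libraries, without a block, with 11 residual degrees of freedom and Benjamini-Hochberg adjustment over 5846 genes at 0.01. The filter was a mean log2 of at least 2 in Pgpd-HAP4 log phase, which left out 818 genes. A change is called when it passes, and rises and falls are called changes. Slope and ChrXIIr values used the deposited log2 values and each sample's own experiment as log phase (wild type E30_1 used the mean of the wild type log samples). Motifs were counted in RefSeq's R64 genome, whose gene coordinates equal those of the files for 5980 of 5988 matched genes. Named genes were those of the Hap complex and the constructs, the 6 largest called rises and falls with no overlap between groups at 24h and 48h, the 4 largest between the ages and at log phase, the 5 largest each way in the difference from wild type, the 4 largest called at 48h in each list, and members of the respiratory lists. Others, such as PHO84, SIT1, FET3, HXT1, ASH1, MAM33 and ADY4, were chosen after their values were seen. The gene of the citric acid cycle list that fell at 48h is not reported by name. Members and lists were chosen with earlier results of these data known. Alternatives tried were values as deposited, other filters, limma-trend, voom, a replicate block, fewer wild type samples and leaving out each library. The tests were tried on simulated counts whose spread was set and not taken from these libraries. Of genes changed by 1 on the log2 scale at 48h 23.2% were recovered, and 95% of those changed by 2, with 2 false calls. In the simulation 99 and 100 of 5865 genes were changed by those amounts, whereas 46.4% of genes were called at 48h in these data. Its recovery therefore does not carry over to these tests, and a change of 1 can still go uncalled. Tables were made in Python 3.11.15 with pandas 2.3.3 and numpy 2.4.6, and figures with matplotlib 3.10.9.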

Additional observations from a re-analysis of the deposited data

Results flagged for a closer look

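Genes whose change with age at 48h differed between the strains were taken from the interaction contrast (limma, Benjamini-Hochberg adjusted p under 0.01). The differences, Pgpd-HAP4 minus wild type, were -2.04 for INH1, -1.66 for RPM2, -1.57 for BNA2, -1.42 for CYT1, -1.39 for QCR10, -1.32 for QCR2, -1.11 for ATP20, -1.08 for YPR010C-A, -0.98 for TIM11, -0.93 for YLR294C, -0.90 for ATP14, -0.84 for MAM33, -0.75 for ADY4 and 0.70 for ICL1. With the experiment as a replicate block 3 of these 14 were called. The adjusted p-values lay between 0.000854 (MAM33) and 0.00882 (CYT1).

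Of 34 groups of 4 wild type samples looked at, 2 had a sample far from the other 3, and chance gives about 1 in 20. HAP4 had 997.2 counts in wild type of E34 at 24h, against 1676 to 1805 in the other 3. ADY4 had 262.2 counts in the wild type 48h library labelled by its lane alone, against 287.3 to 290.7 in the other 3.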

How the results depend on the processing

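Counts of called genes by setting were as follows, with limma and the same threshold. On the values as deposited, 1215 genes changed at 24h against log phase (653 higher, 562 lower), against 734 after quantile normalisation, and the difference between strains in the change with age had 28 genes at 24h (0 after quantile normalisation) and 80 at 48h (14). With wild type of E30 alone, the log phase difference had 144 genes (258 with all wild type) and the 48h difference 0. The 48h difference had 23 genes with a filter of 16 counts, 26 in limma-trend, 32 in voom and 3 with the experiment as a replicate block, and voom gave 2 at 24h. With the block, counts elsewhere were 431 higher and 368 lower at 24h, 1166 and 1672 at 48h, 482 and 565 between the ages and 192 and 5 at log phase. Deviations of same-numbered Pgpd-HAP4 samples correlated at 0.231 to 0.315, but only 2 pairs exist, so the numbers are not shown to pair the samples. Leaving out 1 library gave 247 to 820 genes at 24h, 1913 to 2844 at 48h, 254 to 1175 between the ages, 149 to 276 at log phase, 0 to 5 and 0 to 31 for the difference at 24h and 48h, slope differences of 0.0361 to 0.0584 and 0.0395 to 0.0742, and ChrXIIr differences of -0.1103 to -0.0738 and -0.1808 to -0.1309. Libraries that moved a count over 1.5 times were, at 24h, Pgpd-HAP4 log (286, 284) and 24h (247, 414); between the ages, 24h (474, 254) and 48h (389, 338); at log phase, Pgpd-HAP4 log (155, 149), each pair for E30_1 and E30_2. The 48h difference had 8, 9, 7, 31 and 22 genes without the wild type log replicates 2 and 4, 24h replicate 2, and 48h replicates 3 and 4, and the 24h difference had 5 and 2 without wild type log replicate 4 and 48h replicate 3. As deposited, the 48h change of TDH3 was -1.387, QCR2 -0.019, ATP1 -0.096, ATP2 -0.171, LPD1 -0.233, IME1 0.211, RPT2 -0.054 and PAU17 0.395, of the opposite sign to the quantile-normalised change (TDH3 fixed at 0). The causes were not tested. Of 5234 alternatives over 204 results for named genes, 4888 kept direction and side of the threshold, 325 lost the call, 13 gained it and 8 changed sign. A fit of the 6 Pgpd-HAP4 libraries alone gives no comparison with wild type. It called 507 genes at 24h (339 higher, 168 lower), 2522 at 48h (1076 and 1446) and 667 between the ages (356 and 311). Of the genes called in the main fit it kept 411 of 734 at 24h, 2295 of 2714 at 48h and 543 of 999 between the ages.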

Other observations

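Of the 818 genes left out by the filter, 275 had 0 reads in both Pgpd-HAP4 log phase libraries, and 3 of these had over 10 reads in both 48h libraries. DDR2, a stress gene, had 263 and 368 reads at 48h and 25 and 24 at 24h. SPO19, of late meiosis, had 43 and 53 reads at 48h and 11 and 11 at 24h, and SNO4 had 16 and 22 at 48h and 4 and 1 at 24h.

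In a separate table of Pgpd-HAP4 cells aged for 48h and sorted by bound wheat germ agglutinin (WGA), which stains bud scars, 2 libraries each were given for high, medium and low WGA (E36, then E66). The titles of the E36 libraries also carry a GFP class that runs the other way, low for high WGA, and the WGA class was used. As deposited, the median of the 42 respiratory genes was 2351 and 2584 counts in high, 995.9 and 1882 in medium and 778.5 and 1283 in low WGA, against 2273 and 2364 at log phase. HAP4 had 3526 and 2856 counts in high, 3532 and 2906 in medium and 2286 and 3207 in low WGA, against 7288 and 8904 at log phase. FIT3 had 254.1 and 255.0 counts in high, 10316 and 4190 in medium and 13160 and 11863 in low WGA, against 148.8 and 121.0 at log phase.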
